A study of Mus musculus with 8 samples.

Results

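The MYC and MAX network is a group of transcription factors that pair with one another through a basic helix-loop-helix leucine zipper and read the same short DNA motif, the E-box. Its transcripts were followed through mitotic arrest and the return to G1 in mouse pluripotent stem cells. The members were chosen by name: 10 genes, Myc, Mycn, Mycl, Max, Mxd1, Mxd3, Mxd4, Mnt, Mga and Mlx, out of 54838 genes in the deposited count table. Each symbol matched 1 Ensembl gene, and all 10 had enough reads to be tested.

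RNA was sequenced from 2 independent clones of male mouse induced pluripotent stem cells (the sample titles call them ESC), grown on irradiated feeder cells with serum, LIF and inhibitors of MEK and GSK3. Mitotic cells had been passaged to gelatin, held in nocodazole at 200 ng/ml for 6 h, which blocks microtubule growth, and shaken off. Early G1 and late G1 cells came from the same arrest and shake-off and were taken after the drug was washed out and they had spent 1 h or 3 h on gelatin. The labels write these states EG1 and LG1, read here as early and late G1, and do not tie either name to its time. Asynchronous cells were a cycling population, for which the labels describe no arrest or shake-off, so these steps were shared by the other 3 states. Whether asynchronous cells had also been passaged off the feeders is not stated. Each state had n = 2 libraries. The labels do not say which clone gave which library, and p-values measure only the spread between these libraries.

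In this network MYC, MYCN and MYCL are activators that bind DNA only as dimers with MAX, and they promote growth, ribosome production and proliferation. The MXD proteins and MNT compete for MAX and recruit SIN3 corepressors to the same motif. MGA also pairs with MAX, within a noncanonical Polycomb complex that keeps germ cell genes silent in embryonic stem cells. MLX is a parallel partner that serves the glucose-sensing MONDO factors and some MXD proteins. Myc mRNA is known to be short-lived, and in mouse embryonic stem cells Myc and Mycn are partly redundant.

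The letters that the dimers read, CACGTG (the same on both strands), were searched in RefSeq promoter windows running from 250 bases before to 50 after each start (GRCm38.p6). Windows were found for 9 of the 10 members, not for Myc. Of these, 4 held the motif, Max, Mxd4, Mnt and Mlx, while 7.15% of 32851 mouse windows of this length did. The E2F-type letters TTTCGCGC, on either strand, stood in the Mycn window and in 0.323% of all windows. The stretches around the matches are shown because they hold the network's own motif, or that of the E2F factors of G1, next to genes whose levels follow here. Capitals mark the match, each line runs 5′ to 3′ on the gene's strand, and a match is a description of letters only.
Max (chr12:76962219-76962278, minus strand): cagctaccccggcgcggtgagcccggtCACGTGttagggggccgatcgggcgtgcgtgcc
Mxd4 (chr5:34187897-34187956, minus strand): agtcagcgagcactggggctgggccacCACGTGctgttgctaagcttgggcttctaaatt
Mnt (chr11:74830774-74830833, plus strand): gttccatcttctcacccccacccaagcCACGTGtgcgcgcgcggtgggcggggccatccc
Mlx (chr11:101087223-101087282, plus strand): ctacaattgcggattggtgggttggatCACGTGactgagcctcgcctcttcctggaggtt
Mycn (chr12:12941981-12942042, minus strand): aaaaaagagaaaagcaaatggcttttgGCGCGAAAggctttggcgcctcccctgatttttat
The first base of the match lay 3 bases before the start in Max, 40 in Mlx, 123 in Mnt, 179 in Mycn and 219 in Mxd4.

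The libraries held between 20410621 and 25615244 counted reads. Their spread was uneven: the biological coefficient of variation between the pair of libraries was 0.183 in mitotic cells, 0.0507 in early G1, 0.0417 in late G1 and 0.291 in asynchronous cells. The main fit used a shared estimate of spread for all states. Standard errors, intervals and p-values for asynchronous cells therefore also draw on the closer G1 pairs, and those for G1 on the wider asynchronous pair. All 10 pluripotency markers fixed for the check, Pou5f1, Sox2 and Nanog among them, were detected in every library, with sums of 5618 to 6914 CPM in the other 3 states and 4650 and 6079 CPM in asynchronous cells. Of 20 feeder fibroblast markers, 19 were tested, and 15 of these were called lower in mitotic than in asynchronous cells and none higher. In the same comparison 6 of the 10 pluripotency markers were called higher and none lower. Of all genes, 18.3% were called higher there and 22.4% lower. The feeder marker sum was 2399 and 2074 CPM in mitotic cells, 1930 to 2157 CPM in G1, and 4662 and 4191 CPM in asynchronous cells. Fn1, Sparc, Vim and Fstl1 made up most of that sum in the 6 synchronised libraries. Sparc, for one, had 909 and 865 CPM in mitotic and 776 and 1021 CPM in asynchronous cells. The sum therefore does not show the size of the fall in the other markers. Col1a1, a defining fibroblast marker, stood at 5.96 to 21.5 CPM in the 6 synchronised libraries and at 509 and 554 CPM in asynchronous ones. Of 15 macrophage markers, 14 were tested. Among these, 6 were called higher in mitotic than in asynchronous cells, where 18.3% of all genes were. In early G1, 10 were called lower than in mitotic cells, where 1.42% of all genes were. Laptm5 and Cd68 made up most of the summed level of that list and stayed at 159 to 249.6 CPM and 39.4 to 64.1 CPM in all libraries. The other 13 summed to 69.6 and 68.3 CPM in mitotic, 4.72 and 2.86 CPM in early G1, 3.51 and 6.38 CPM in late G1, and 25.8 and 35.9 CPM in asynchronous libraries. Counts of 0 were found for Ptprc, Adgre1, C1qa, C1qb and C1qc in early G1 replicate 2, for Lyz2, Adgre1, Tyrobp, C1qa and C1qc in late G1 replicate 1, and for Lyz2 in late G1 replicate 2. The part of these other cells in the results below was not tested. In bulk RNA, fewer cells carrying a transcript and less transcript per cell cannot be told apart.

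All 3 MYC family genes were higher in mitotic than in asynchronous cells, together with Mlx, and Mxd3 was lower. Thus 4 of 10 members rose, against 18.3% of all 19101 tested genes, and 1 fell, against 22.4% (40.7% in either direction, edgeR quasi-likelihood test, Benjamini-Hochberg adjusted p under 0.05). The member median was 0.33 on the log2 scale and that of all tested genes was -0.05. The other 5, Max, Mxd1, Mxd4, Mnt and Mga, did not pass the test. Levels below are CPM, read counts scaled to library size with TMM normalisation, and changes are log2 fold changes with their standard error (SE).

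Myc (ENSMUSG00000022346, chromosome 15, 61985391 to 61990374, GRCm38), the founding oncogene of the family, stood at 21.5 and 12.9 CPM in mitotic cells, 43.5 and 41.3 CPM in early G1, 40.0 and 36.2 CPM in late G1, and 3.46 and 1.06 CPM in asynchronous cells. No library of the 3 synchronised states reached down to the asynchronous ones, and the highest mean was 18.7 times the lowest. The mitotic level exceeded the asynchronous one by 2.88 (SE 0.44, adjusted p = 0.0018), and the early and late G1 levels exceeded it by 4.19 (SE 0.45, adjusted p = 4.02e-04) and 4.03 (SE 0.45, adjusted p = 3.68e-04). Between neighbouring states in order of level, early G1, late G1 and mitotic, no step passed the test. The asynchronous pair was itself 3.25-fold apart, replicate 1 above replicate 2, and the mitotic pair 1.67-fold in the same order, against 1.06- and 1.11-fold in early and late G1. The mitotic rise was 2.31 without asynchronous replicate 2 and 4.01 without asynchronous replicate 1. The early G1 excess was 3.61 and 5.31 in the same order, and the late G1 excess 3.45 and 5.16. The early G1 mean was 12.2 times asynchronous replicate 1 and 39.8 times asynchronous replicate 2.

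Mycn (ENSMUSG00000037169, chromosome 12, 12936093 to 12941914, minus strand), the paralog known for its role in embryonic and neural growth, had 103 and 118 CPM in mitotic cells, 149 and 144 CPM in early G1, 113 and 103 CPM in late G1, and 61.6 and 52.9 CPM in asynchronous cells. The early G1 libraries lay above all others, the mitotic and late G1 libraries overlapped, and the asynchronous ones lay lowest. Against asynchronous cells it was higher by 0.95 in mitosis (SE 0.13, adjusted p = 0.00131), by 1.35 in early G1 (SE 0.14, adjusted p = 2.98e-04) and by 0.92 in late G1 (SE 0.13, adjusted p = 0.00116).

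Mycl (ENSMUSG00000028654, chromosome 4, 122995652 to 123002485), the paralog first found amplified in lung cancer, had 32.8 and 34.8 CPM in mitotic cells, 44.3 and 45.4 CPM in early G1, 43.0 and 43.9 CPM in late G1, and 13.4 and 9.68 CPM in asynchronous cells. Its pairs of libraries were close to each other in all synchronised states. The excess over asynchronous cells was 1.55 in mitosis (SE 0.17, adjusted p = 4.68e-04), 1.95 in early G1 (SE 0.17, adjusted p = 1.92e-04) and 1.91 in late G1 (SE 0.17, adjusted p = 1.65e-04). Comparisons with asynchronous cells share those 2 libraries, so the 3 values are not independent of one another.

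**Figure D1:**
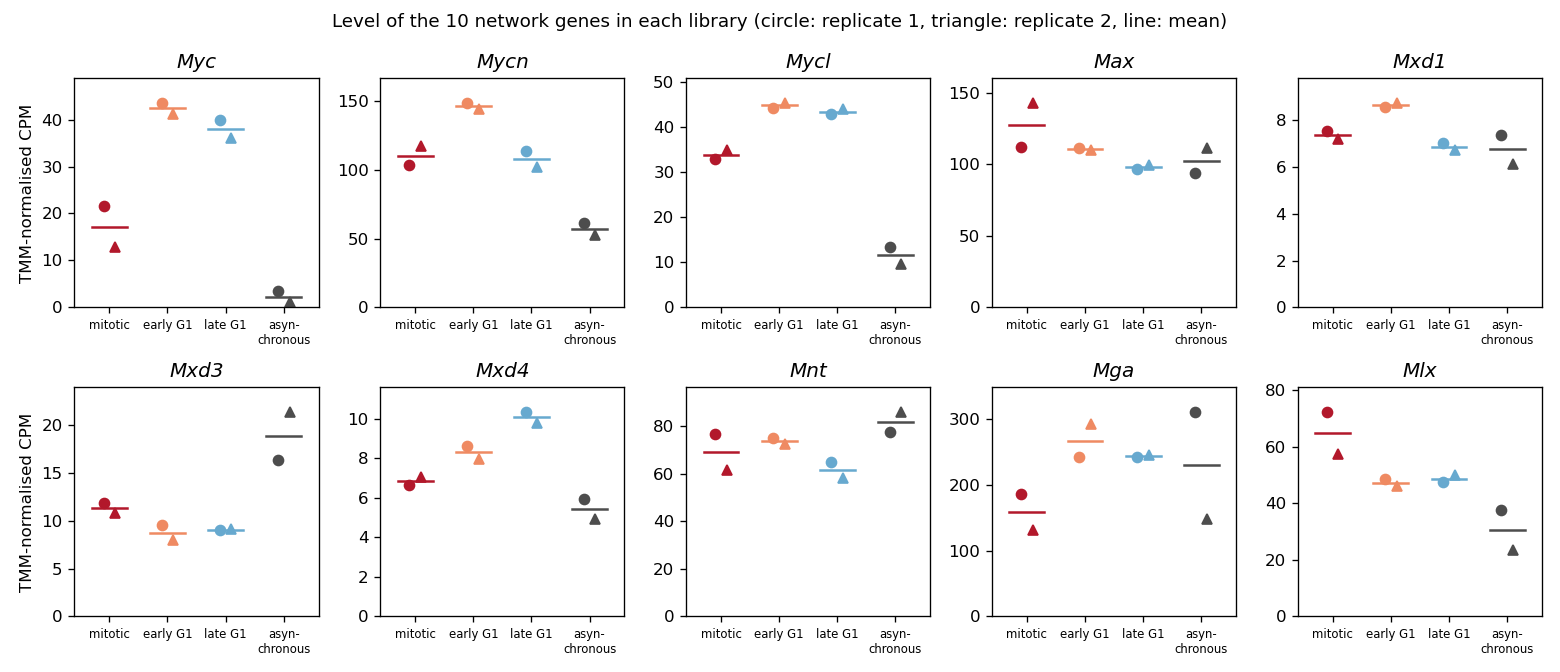
TMM-normalised CPM (y axes, each starting at 0) of the 10 network genes in mitotic, early G1, late G1 and asynchronous libraries, with circles for replicate 1, triangles for replicate 2 and lines for the mean of n = 2. Myc, Mycn and Mycl are lowest in asynchronous cells, Mxd3 is highest there, and the 2 asynchronous libraries of Mga lie at 311 and 149 CPM.

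To set one paralog against another, CPM were divided by the exon length of each gene in kb. This is the merged length of all annotated exons, not that of the transcripts expressed here, so rankings of different genes and ratios between them depend on it. On this scale Mycn was the main MYC family transcript in every library. It made up 66.2% and 72.8% of the summed length-scaled level in mitotic cells, 62.6% and 62.3% in early G1, 57.6% and 56.3% in late G1, and 80.3% and 85.2% in asynchronous cells. The share of Myc was 16.7% and 9.65% in mitotic cells, 22.2% and 21.6% in early G1, 24.6% and 24.1% in late G1, and 5.48% and 2.08% in asynchronous cells. Mycl kept to between 12.7% and 19.7% in all 8 libraries. The family sum was 47.4 and 49.1 CPM per kb in mitotic cells, 72.1 and 70.2 in early G1, 59.8 and 55.3 in late G1, and 23.3 and 18.8 in asynchronous cells.

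**Figure D2:**
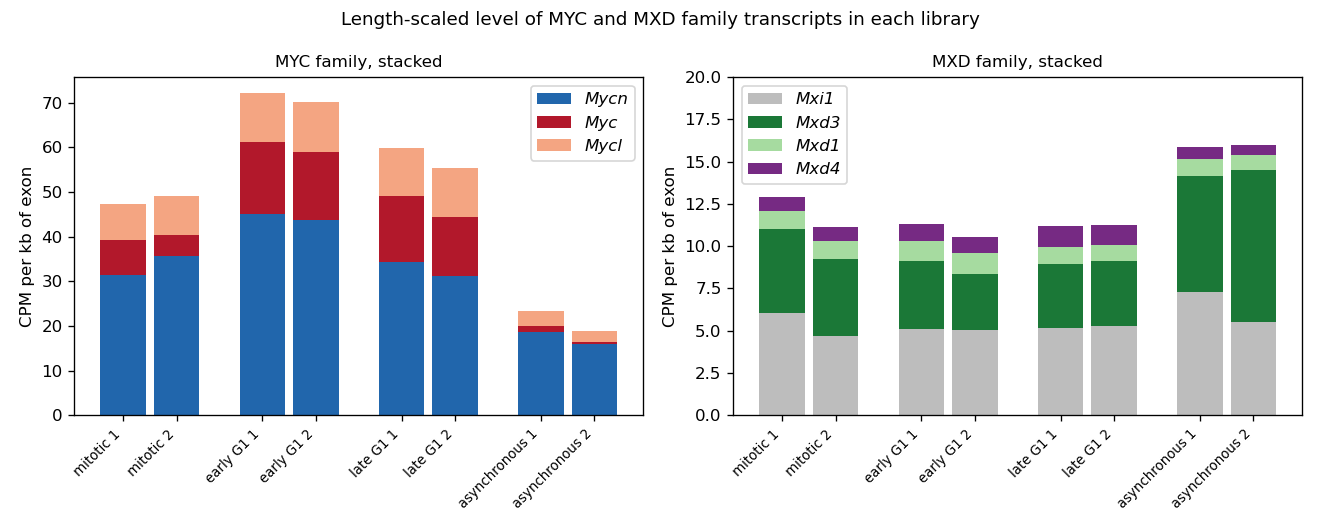
Length-scaled levels (CPM per kb of exon, y axes from 0) of MYC family transcripts on the left and MXD family transcripts on the right (Mxi1, which is not among the 10 genes, included), stacked by gene for each of the 8 libraries. Mycn fills most of every MYC bar, the Myc part is thinnest in the asynchronous libraries, and Mxi1 and Mxd3 are the 2 largest parts of each MXD bar, Mxd3 above Mxi1 only in asynchronous replicate 2.

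Max and Mlx, the partners through which the others bind DNA, differed from each other. Max (ENSMUSG00000059436, chromosome 12, 76937269 to 76962201, minus strand) had 112 and 143 CPM in mitotic cells, 111 and 110.2 CPM in early G1, 96.5 and 99.7 CPM in late G1, and 94.0 and 111 CPM in asynchronous cells. Early G1 and asynchronous libraries overlapped, as did late G1 and asynchronous ones. None of its 6 comparisons passed the test, and its means spanned 1.30-fold over the 4 states. The 95% interval of its difference from asynchronous cells ran from -0.03 to 0.66 in mitosis and from -0.41 to 0.28 in late G1. The ratio of the MYC family sum to Max, per length, was 1.52 and 1.24 in mitotic cells, 2.33 and 2.29 in early G1, 2.23 and 2.00 in late G1, and 0.891 and 0.609 in asynchronous cells.

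Mlx (ENSMUSG00000017801, chromosome 11, 101087277 to 101092207) was highest at the arrest, with 72.3 and 57.3 CPM in mitotic cells, 48.5 and 46.0 CPM in early G1, 47.4 and 49.96 CPM in late G1, and 37.5 and 23.6 CPM in asynchronous cells. The asynchronous libraries lay below all others. It was higher than in asynchronous cells by 1.08 in mitosis (SE 0.22, adjusted p = 0.00596), 0.63 in early G1 (SE 0.22, adjusted p = 0.0443) and 0.67 in late G1 (SE 0.22, adjusted p = 0.0336). The early G1 call was lost under 9 of 15 alternatives and the late G1 call under 6 of 15. Both were lost in the fit of each pair of groups alone (adjusted p = 0.112 and 0.089). Without asynchronous replicate 2 the values were 0.33 and 0.37, and neither passed. Of the Mlx exon length 19.3% is shared with Psmc3ip on the opposite strand, and the strand setting of the counting is not known. Psmc3ip itself stood at 39.0 and 36.1 CPM in mitotic and 37.7 and 38.4 CPM in asynchronous cells.

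The members on the repressor side went different ways. Mxd3 (ENSMUSG00000021485, chromosome 13, 55325168 to 55329823, minus strand), which in mouse is known as the MXD gene of proliferating, S-phase cells, had 11.9 and 10.8 CPM in mitotic cells, 9.54 and 7.96 CPM in early G1, 8.98 and 9.15 CPM in late G1, and 16.3 and 21.3 CPM in asynchronous cells. Both asynchronous libraries lay above the other 6, and early and late G1 overlapped. Against asynchronous cells its values were -0.73 in mitosis (SE 0.19, adjusted p = 0.0167), -1.10 in early G1 (SE 0.19, adjusted p = 0.00266) and -1.05 in late G1 (SE 0.19, adjusted p = 0.00289). The mitotic fall did not pass in the fit of those 2 groups alone (adjusted p = 0.0964) or without either mitotic library (adjusted p = 0.0575 and 0.0854). Prelid1, which shares 4.43% of the Mxd3 exon length on the opposite strand, had 243 and 258 CPM in mitotic and 244 and 363 CPM in asynchronous cells.

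Mxd4 (ENSMUSG00000037235, chromosome 5, 34173883 to 34187720, minus strand), an MXD gene linked to cells that leave the cycle, went the other way and was highest in late G1. It had 6.66 and 7.08 CPM in mitotic cells, 8.64 and 7.96 CPM in early G1, 10.4 and 9.80 CPM in late G1, and 5.93 and 4.92 CPM in asynchronous cells, and no 2 states overlapped. It was higher by 0.61 in early G1 (SE 0.18, adjusted p = 0.0253) and by 0.89 in late G1 (SE 0.18, adjusted p = 0.0049) than in asynchronous cells. The early G1 call was lost under 7 of 15 alternatives, with adjusted p of up to 0.144 without early G1 replicate 1. The late G1 call held under all 15. No step between neighbouring states passed.

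Mxd1 (ENSMUSG00000001156, chromosome 6, 86647042 to 86669161, minus strand), known from differentiating blood cells, stayed between 6.13 and 8.73 CPM in all 8 libraries and passed none of 6 comparisons. Mnt (ENSMUSG00000000282, chromosome 11, 74830920 to 74845725), the MAX partner that is expressed in cycling and resting cells alike, had 76.9 and 61.6 CPM in mitotic cells, 74.9 and 72.6 CPM in early G1, 64.8 and 58.0 CPM in late G1, and 77.4 and 86.0 CPM in asynchronous cells. Its only call was in late G1 against asynchronous cells (-0.41, SE 0.15, adjusted p = 0.045). That call was lost under 9 of 15 alternatives, DESeq2 included (adjusted p = 0.0549), and without late G1 replicate 2 the adjusted p was 0.256. For the length scale, Mxi1, the remaining MXD gene, which is not among the 10, was added to the MXD sum, and stood at 4.69 to 7.27 CPM per kb. Mnt, at 12.5 to 18.6 CPM per kb, was above the sum of the 4 MXD genes, 10.5 to 16.0 CPM per kb, within each library. In asynchronous replicate 1 the 2 values were close, 16.7 and 15.9 CPM per kb. The MYC family sum over the sum of those genes and Mnt was 1.61 and 2.01 in mitotic cells, 2.62 and 2.67 in early G1, 2.38 and 2.32 in late G1, and 0.714 and 0.545 in asynchronous cells.

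Mga (ENSMUSG00000033943, chromosome 2, 119897228 to 119969581), the largest gene of the network by exon length, had 187 and 132 CPM in mitotic cells, 243 and 292 CPM in early G1, 242 and 246 CPM in late G1, and 311 and 149 CPM in asynchronous cells. The asynchronous libraries lay on both sides of the G1 ones. No comparison passed, and the direction against asynchronous cells turned on 1 library. In mitotic against asynchronous cells the value was -0.53 (95% interval -1.25 to 0.19), -0.97 without asynchronous replicate 2 and 0.11 without asynchronous replicate 1. In late G1 against asynchronous cells it was 0.09, then -0.35 without asynchronous replicate 2 and 0.72 without asynchronous replicate 1. In early G1 the values were 0.22, -0.22 and 0.85 in the same order. Those of early and late G1 without asynchronous replicate 1 passed (adjusted p = 0.00802 and 0.0163), as did the mitotic one without asynchronous replicate 2 (adjusted p = 0.00408).

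**Figure D3:**
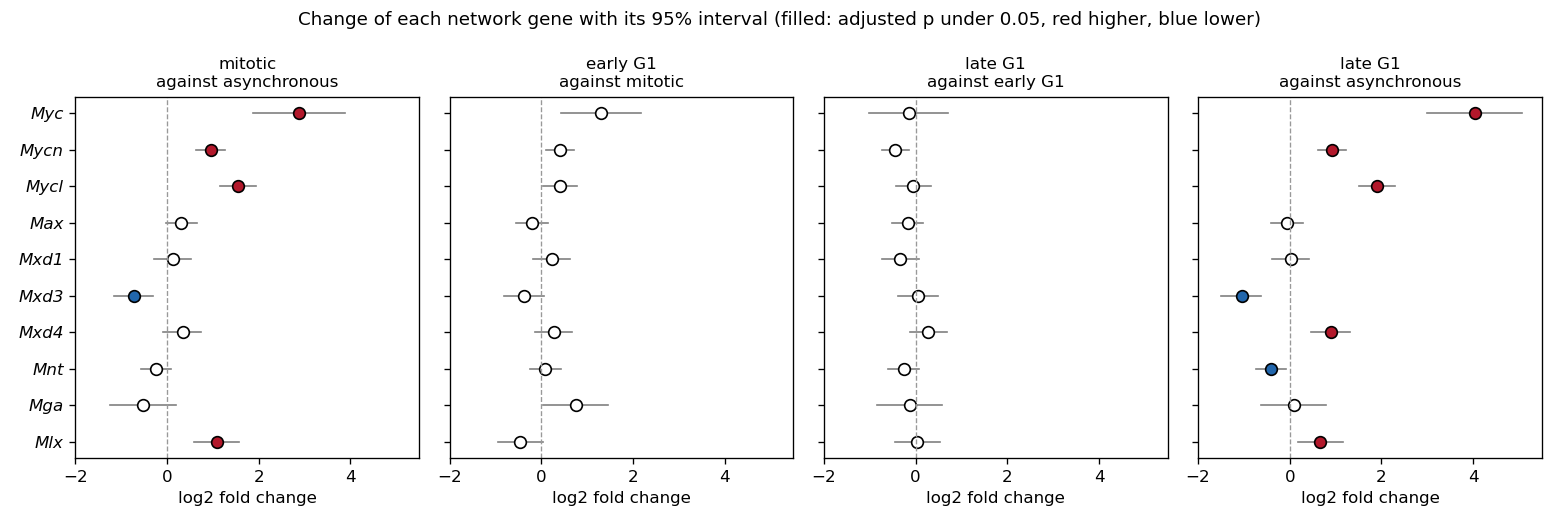
Log2 fold changes (x axes) of the 10 genes in 4 comparisons, the first-named state over the second, with 95% intervals as lines. Filled points passed the test (red higher, blue lower): Myc, Mycn, Mycl, Mlx and Mxd3 in both comparisons with asynchronous cells, Mxd4 and Mnt only in late G1 of these 2, and none between early G1 and mitotic or late and early G1 cells.

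In early G1, 5 of 10 members were higher than in asynchronous cells and 1 was lower, where 21.3% and 24.7% of all genes were called. In late G1, 5 were higher and 2 lower, where the shares were 22.7% and 26.0%, together 48.7%. In early G1 both directions came to 46.0% of all genes. Both comparisons called the same 5 members higher, Myc, Mycn, Mycl, Mxd4 and Mlx, and Mxd3 lower. The member median was 0.48 in early G1 and 0.38 in late G1, and that of all genes -0.03 in each. Leaving out replicate 1 of both the mitotic and the asynchronous group gave 9 called members in each of these comparisons, where 13517 genes were called in early G1 and 13664 in late G1, against 8784 and 9305 with all libraries.

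Early G1 cells, read here as the 1 h collection, were set against mitotic cells to ask which network genes changed soon after release. No member passed the test between early G1 and mitotic cells with edgeR, where 4.63% of all genes were called, 3.21% higher and 1.42% lower. At an unadjusted p under 0.05, 4 members differed, Myc, Mycn, Mycl and Mga, all higher in early G1. The share of all genes under that threshold, here and below, was not counted. Both early G1 libraries lay above both mitotic ones for 6 members, these 4 among them, and below for 3. The share of all genes with such a separation was not counted either. Myc was 42.4 ± 1.62 CPM in early G1 and 17.2 ± 6.10 CPM in mitotic cells (SD, n = 2 each), a difference of 1.30 (SE 0.38, 95% interval 0.42 to 2.18, adjusted p = 0.0956). Mycn averaged 146 ± 3.30 CPM in early G1 and 110.5 ± 10.1 CPM in mitotic cells, a difference of 0.41 (SE 0.13, adjusted p = 0.122). For Mga the difference was 0.75 (SE 0.31, adjusted p = 0.205). Of 14 tested macrophage markers, 10 were called lower in early G1 in the same comparison, and 4 of 19 tested feeder markers were called higher.

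These calls differed between fits. In the fit of the 2 groups alone, which called 2759 of all genes against 885 with all libraries, the same 4 members passed (adjusted p = 0.0136 for Myc, 0.0392 for Mycn, 0.0447 for Mycl and 0.0294 for Mga). DESeq2 called 1 member, Myc (adjusted p = 0.0093), among 1412 of all genes. Without asynchronous replicate 1 or 2, a pair of libraries outside the comparison that share in the estimate of spread, 5 members passed, the same 4 higher and Mlx lower (Mlx -0.46 in both fits), and of all genes 4431 and 4518 passed.

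Late G1 cells, read here as the 3 h collection, were compared with mitotic cells for the net change after release. None of 10 members passed with edgeR, where 9.48% of all genes were called, 5.43% higher and 4.04% lower. Unadjusted p was under 0.05 for 3 members, Myc (1.15, SE 0.38, adjusted p = 0.099), Mxd4 (0.55, SE 0.18, adjusted p = 0.0916) and Max (-0.38, SE 0.15, adjusted p = 0.151). The fit of the 2 groups alone called 4 members higher, Myc, Mycl, Mxd4 and Mga, among 3959 of all genes. DESeq2 called Myc (adjusted p = 0.0192) among 2235 of all genes.

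Between late and early G1 no member and none of the 19101 genes was called with edgeR (0%), and DESeq2 called 26 genes, none of them a member. Unadjusted p was under 0.05 for Mycn alone, which averaged 108 ± 7.75 CPM in late G1 and 146 ± 3.30 CPM in early G1 (-0.44, SE 0.13, 95% interval -0.74 to -0.14, adjusted p = 1). In the fit of the 2 G1 states alone, which had the closest pairs of libraries, 2 members were lower in late G1, Mycn (-0.44, adjusted p = 2.92e-06) and Mnt (-0.26, adjusted p = 0.00915). That fit called 1493 of all genes.

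Known MYC targets were examined as a list of 50 genes of ribosome production, nucleotide and polyamine synthesis, chaperones, glycolysis and the cycle. Like the other lists below, it was chosen with earlier results of these data known. In mitotic against asynchronous cells 21 rose (42%), 5 fell (10%) and 24 were not called, where 18.3% of all genes rose and 22.4% fell. The median was 0.37 for the list and -0.05 for all genes. Imp4, part of the machinery that processes ribosomal RNA precursors, had 174 and 179 CPM in mitotic and 76.0 and 72.2 CPM in asynchronous cells (1.25, SE 0.11, adjusted p = 1.77e-04). Polr1b, a subunit of RNA polymerase I, rose by 1.14 (SE 0.12) and the nucleolar helicase gene Ddx21 by 1.59 (SE 0.17). Of those that fell, Ldha, which makes lactate from pyruvate, had 931 and 1055 CPM in mitotic and 1949 and 2551 CPM in asynchronous cells (-1.18, SE 0.15, adjusted p = 7.95e-04). Eno1, another glycolytic enzyme gene, which has a near-identical copy among which reads could be split, fell by 1.20, and Ccnd2, a D-type cyclin gene, by 0.88. Hk2, which encodes a hexokinase, and Tert, which encodes telomerase reverse transcriptase, were the remaining 2 that fell (-0.36 and -0.66).

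In late G1 against asynchronous cells 24 targets rose (48%) and 5 fell (10%), where 22.7% and 26.0% of all genes did, again with Imp4 (1.35), Ddx21 (1.86) and Polr1b (1.13) higher and Ldha (-1.34), Eno1 (-1.57) and Hk2 (-0.51) lower. The feeder markers above moved with this contrast too. Between early G1 and mitotic cells none of 50 was called with edgeR, and DESeq2 called 3, among 1412 of all genes. An unadjusted p under 0.05 was found for 11, and the share of all genes was not counted. In late G1 against mitotic cells Ccnd2 (1.05, SE 0.20) and the replicative helicase gene Mcm4 (0.80, SE 0.20) rose and the nucleolar methyltransferase gene Nop2 fell (-0.52, SE 0.11), while the median was -0.02. These 3 of 50 are 6%, below the 9.48% of all genes. No target was called without mitotic replicate 1, either early G1 library or either late G1 library, and 1 was without mitotic replicate 2. Without replicate 1 of the mitotic and asynchronous groups, the called targets were 30 higher and 11 lower in mitotic against asynchronous cells and 9 higher and 19 lower in early G1 against mitotic cells, where 11700 and 7918 of all genes were called. Leaving out asynchronous replicate 1 or 2 alone gave 17 and 18 called targets in early G1 against mitotic cells.

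**Figure D4:**
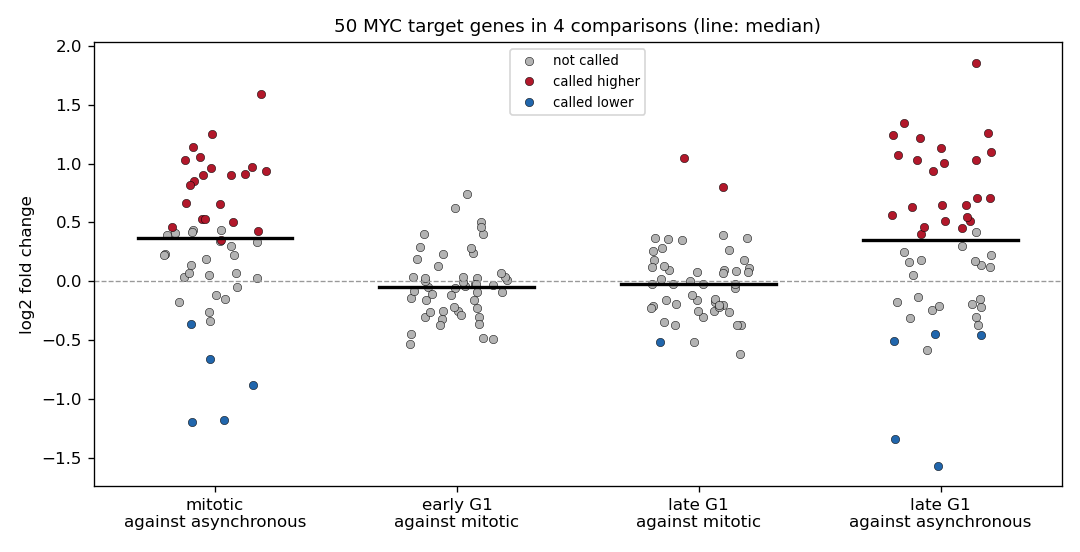
Log2 fold changes (y axis) of the 50 listed MYC target genes in 4 comparisons, one point per gene, spread sideways for visibility, with a line at the median. Called genes are red (higher) or blue (lower): 21 and 5 in mitotic against asynchronous cells, 0 and 0 in early G1 against mitotic, 2 and 1 in late G1 against mitotic, and 24 and 5 in late G1 against asynchronous cells.

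Genes that act on MYC proteins or with them, 29 in number, were read the same way. In mitotic against asynchronous cells 8 rose and 2 fell, with a median of 0.14, so that 34.5% were called where 40.7% of all genes were. Skp2, the substrate receptor of an E3 ligase that targets MYC among others, rose by 1.07 (SE 0.15) and Actl6a, a subunit shared by chromatin remodelling and TIP60 complexes, by 1.13 (SE 0.17). Pim1, a kinase gene induced by LIF and STAT3 whose product phosphorylates MYC, had 47.6 and 51.6 CPM in mitotic and 167 and 153 CPM in asynchronous cells (-1.69, SE 0.12, adjusted p = 9.01e-05). It was the 1 gene of the list called in early G1 against mitotic cells (3.45%, against 4.63% of all genes), at 106 and 105 CPM against 47.6 and 51.6 CPM (1.09, SE 0.12, adjusted p = 0.00513). In late G1 against mitotic cells Pim1 and Fbxw7, whose product marks phosphorylated MYC for degradation, rose (0.66 and 0.61), and the mitotic kinase gene Aurka and Pim3 fell (-0.85 and -0.52), 13.8% of the list against 9.48% of all genes. Against asynchronous cells, late G1 had 11 higher and 6 lower (58.6%, against 48.7% of all genes). The other genes of the network itself, Mxi1, Mlxip and Mlxipl, passed in none of 6 comparisons.

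MGA works within the PRC1.6 complex, and the list of its 15 subunit genes includes the members Max and Mga. In mitotic against asynchronous cells 8 rose (53.3%) and none fell, where 18.3% of all genes rose and 22.4% fell. The median was 0.57, against -0.05 for all genes. L3mbtl2, its methyl-lysine reader, had 363 and 303 CPM in mitotic and 166 and 191 CPM in asynchronous cells (0.90, SE 0.13), and Pcgf6, its defining RING finger subunit, rose by 0.70 (SE 0.13). E2f6, the subunit that binds E2F motifs, was the 1 gene called in late G1 against mitotic cells (6.67% of the list, against 9.48% of all genes). It stood at 54.0 and 52.7 CPM in late G1 and 27.0 and 31.4 CPM in mitotic cells (0.87, SE 0.14, adjusted p = 0.0113). In early G1 against mitotic cells none was called with edgeR and 2 had an unadjusted p under 0.05, for which the share of all genes was not counted.

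Germ cell genes that this complex is known to silence, 21 in the list, were also measured. In mitotic against asynchronous cells 2 rose (9.52%) and 10 fell (47.6%), where 18.3% of all genes rose and 22.4% fell. The median was -0.80, against -0.05 for all genes. In early G1 against mitotic cells 3 rose (14.3%, against 3.21% of all genes) and none fell. They were Stag3, a meiotic cohesin subunit gene (129 and 126 CPM in early G1, 63.9 and 75.4 CPM in mitotic cells, adjusted p = 0.0103), Dazl, an RNA-binding protein gene of germ cells (209 and 199 CPM in early G1, 138 and 124 CPM in mitotic cells, adjusted p = 0.033), and Tuba3a (adjusted p = 0.0488), whose reads may be shared with the near-identical Tuba3b. In late G1 against mitotic cells 5 rose (23.8%, against 5.43% of all genes) and none fell. How many of these calls held under the alternatives was not counted, nor was it for the other lists except the MYC targets. In late G1 against asynchronous cells 3 rose (14.3%) and 8 fell (38.1%), where 22.7% and 26.0% of all genes did. Dazl was higher by 1.70 (SE 0.13), and Stra8, the retinoic acid-induced gene of meiotic entry, was lower by 2.11 on the log2 scale, at 5.52 and 4.03 CPM in late G1 and 20.1 and 21.3 CPM in asynchronous cells.

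Targets of the MONDO factors that pair with MLX gave 7 tested genes of 8. In mitotic against asynchronous cells none rose and 4 fell (57.1%, against 22.4% of all genes), where Mlx itself rose. Txnip, the best known of them, which encodes an inhibitor of glucose uptake, had 316 and 267 CPM in mitotic and 689.5 and 416 CPM in asynchronous cells (-0.92, SE 0.22, adjusted p = 0.0112). Pfkfb3, a regulator of glycolysis, had 11.9 and 14.4 CPM in mitotic and 95.5 and 92.9 CPM in asynchronous cells (-2.84, SE 0.15). It was the 1 gene called in early G1 against mitotic cells (0.71, SE 0.15, adjusted p = 0.0384), 14.3% of those tested against 4.63% of all genes. Hk2 is also on the MYC target list.

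The genes whose pattern lay nearest to a member were found by the root mean square difference of log2 CPM, each gene centred on its own mean over the 8 libraries, among 10788 expressed protein-coding genes. For Myc they were Tgm3 (0.274), Col6a5 (0.400) and Nt5e (0.409). Mycn was nearest to Rrs1, a ribosome assembly factor gene (0.105), Dclre1b (0.109) and Timm23 (0.130). Mycl was nearest to Ddx21 (0.086), Noc3l (0.114) and Epas1 (0.119). Ddx21 is also on the MYC target list, and how often listed targets lie near a member was not counted. The nearest to Mxd1 were Pcnx3 (0.078), Kdm5b (0.080) and Hnrnpul1 (0.086), to Mxd3 they were Tagln2 (0.075), Zswim7 (0.076) and Pdcl2 (0.078), and to Mxd4 they were Capn10 (0.082), Ppm1d (0.085) and Tfrc (0.086). The distance of Myc to its nearest gene was the largest of these 6, and a gene that varies more has larger distances. These values describe the 8 libraries, which come from the same 2 clones. The mitotic and G1 libraries share an arrest and shake-off that the labels do not describe for asynchronous cells.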

How the data were processed

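Per the labels' protocols, poly(A)-selected, strand-marked libraries were sequenced as single 50-base reads. TopHat2, SAMtools, HTSeq and mm10 are named in the submitters' processing notes, without roles or versions. The strand setting and the annotation release were not given in the sources used here. Values as the authors deposited are whole-number read counts for each Ensembl gene, not normalised. Symbols, coordinates and merged exon lengths came from GENCODE M21 (GRCm38), which named 99.9% of the 54838 IDs, and promoter windows from RefSeq.

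The tests ran in edgeR 4.0.16 under R 4.3.3: filterByExpr (minimum count 10) left 19101 genes, TMM scaling, and the robust quasi-likelihood test on all 8 libraries in 4 groups without a replicate block, two-sided, with Benjamini-Hochberg adjustment over all tested genes in each of 6 comparisons. A standard error is the log2 fold change over the root of F. Intervals are 95%. A floor of 3 counts was 0.117 to 0.147 CPM, for counting error only, and the lowest member count was 21. The fit was also run on simulated counts with the same spread in all libraries. Because the spread differed between the states here, that run does not show how the fit behaves on these data. Members and lists were chosen with earlier results of these data known. Named genes were the 10 members, up to 3 called genes of smallest p per list and direction, and the 3 nearest patterns of Myc, Mycn, Mycl, Mxd1, Mxd3 and Mxd4. Hk2 and Tert in mitosis, Mxi1, Mlxip, Mlxipl, Col1a1, other markers with values and the overlapping genes were added after their values were seen. Alternatives were other scalings, DESeq2 1.42.0, no filter, 2 groups alone, a replicate block, and libraries left out.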

Additional observations from a re-analysis of the deposited data

How the results depend on the processing

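Against asynchronous cells, the calls of Myc, Mycn and Mycl held in all 3 states under each of the 15 alternatives run. Of 18 member calls, 13 held under all 15, and the exceptions were Mxd3 in mitosis, Mxd4 and Mlx in early G1, and Mnt and Mlx in late G1. Of 900 member values recomputed, 785 kept direction and side of the threshold, 34 lost and 68 gained a call, and 13 changed sign. Fits that leave a state with 1 library assume that it varies like the others. Counts of calls rested on n = 2 per state with an uneven spread between pairs, and the cause of the changes below was not tested. Depth limits the lowest values, such as Myc in asynchronous cells, with 87 and 21 reads.

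Fitting 2 groups alone called 3883 genes in mitotic against asynchronous cells, 2759 in early G1 against mitotic, 1493 in late against early G1, 3959 in late G1 against mitotic and 5626 in early G1 against asynchronous cells. It called 4, 2 and 4 members in early G1 against mitotic, late against early G1 and late G1 against mitotic cells, and 15, 9 and 13 MYC targets in mitotic against asynchronous, early G1 against mitotic and late G1 against mitotic cells. Without replicate 1 of both mitotic and asynchronous cells, the counts of genes were 11700, 7918, 1518, 8525 and 13517 in the same 5 comparisons. Members called were then 8 in mitotic against asynchronous cells, 7 in early G1 against mitotic, 2 in late against early G1 and 6 in late G1 against mitotic, and targets 41, 28, 33 and 44 in mitotic against asynchronous, early G1 against mitotic, late G1 against mitotic and late G1 against asynchronous cells. DESeq2 called 1412 genes in early G1 against mitotic cells, 2235 in late G1 against mitotic cells and 26 in late against early G1. It called 1 member in early G1 and 1 in late G1 against mitotic cells, and 3 and 5 targets there. With no filter on low counts the genes called were 2362 in early G1 against mitotic cells, 58 in late against early G1 and 3289 in late G1 against mitotic, with 2 members and 6 targets in early G1 and 2 members and 5 targets in late G1 against mitotic cells.

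Leaving out 1 library at a time gave 4737 to 10382 genes in mitotic against asynchronous cells, 42 to 4518 in early G1 against mitotic, 0 to 25 in late against early G1, 73 to 5546 in late G1 against mitotic, 4186 to 11237 in early G1 against asynchronous and 5096 to 11489 in late G1 against asynchronous cells. Members called ranged over 0 to 5 in early G1 and 0 to 6 in late G1 against mitotic cells, and targets over 0 to 18 in both. The members whose sign changed in these fits were Max (early G1 against asynchronous -0.0013 to 0.23, late G1 against asynchronous -0.18 to 0.06), Mga (mitotic against asynchronous -0.97 to 0.11, late against early G1 -0.26 to 0.01, early G1 against asynchronous -0.22 to 0.85, late G1 against asynchronous -0.35 to 0.72), Mnt (early G1 against mitotic -0.06 to 0.26), Mxd1 (late G1 against asynchronous -0.10 to 0.17), Mxd3 (late against early G1 -0.07 to 0.19) and Mycn (late G1 against mitotic -0.13 to 0.06). None of these passed the test with all libraries. With scaling by library size alone Mycn in late G1 against mitotic cells was 0.01, and Max in early G1 against asynchronous cells was -0.0021 without replicate 1 of mitotic and asynchronous cells.

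With a replicate block, 1 member, Myc, was called in early G1 against mitotic cells (adjusted p = 0.0445), among 803 of all genes. In late G1 against mitotic cells 1 member, again Myc, was called (adjusted p = 0.0427), among 1744 of all genes. The numbers were not treated as pairing the samples: the correlation of deviations between same-numbered libraries was 0.621 for mitotic and asynchronous cells, and between -0.365 and 0.0572 for the other 5 pairs of states.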
